A study of Homo sapiens with 15 samples.

Results

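The snoRNA host genes carry small nucleolar RNAs (snoRNAs) inside their introns, and their exon junction complex (EJC) footprints are described here. They were chosen by symbol. The set holds every gene named SNHG followed by a number, with GAS5, ZFAS1, EPB41L4A-AS1 and DANCR as further noncoding hosts, and TAF1D, RABGGTB, GNL3, WDR43, PRRC2A and SF3B3 as protein-coding hosts. This gave 33 genes of the 44786 symbols counted, of which 27 are noncoding and 6 coding.

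A snoRNA is released from its host's intron by splicing and exonuclease trimming and then guides the chemical modification of other RNAs, mostly ribosomal RNA. The spliced exons are a separate product. In coding hosts they are translated, and in noncoding hosts such as GAS5 they hold only short reading frames, reach ribosomes and are known to be degraded by nonsense-mediated decay, a pathway that reads EJCs left downstream of a stop codon. The EJC is laid down on spliced exons a short distance upstream of each exon-exon junction. It has a core of EIF4A3, MAGOH and RBM8A, carries RNPS1 or CASC3 as peripheral proteins, and is removed from the coding region by translating ribosomes.

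The study sequenced RNA protected by EJCs in HEK293 Flp-In TRex, a line derived from human embryonic kidney. In each line a FLAG-tagged MAGOH, CASC3 or RNPS1 was stably expressed, its complexes were pulled down through the tag and then through an antibody to a second EJC protein, and the RNase I footprints were counted (RIPiT-Seq). The labels do not say whether a line is 1 clone.

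There were 15 libraries in 10 groups. The 4 crosslinked groups had 2 libraries each, replicates A and B, from cells fixed with 0.1% formaldehyde for 10 min. FLAG-CASC3 cells gave CASC3-EIF4A3 footprints without cycloheximide, an inhibitor of translation, or after 3 h at 100 µg/ml, and FLAG-RNPS1 cells gave RNPS1-EIF4A3 footprints under the same pair of conditions. These are called CASC3 and RNPS1 footprints, untreated or treated. In the 5 native groups, with 1 library each, cells were neither fixed nor treated and the pairs were MAGOH-CASC3 and MAGOH-RNPS1, and EIF4A3 with each of MAGOH, CASC3 and RNPS1. RNA-seq of rRNA-depleted total RNA from untreated cells without a fusion protein gave 2 libraries. CASC3 and RNPS1 footprints came from different cell lines, so protein and line cannot be told apart. No RNA-seq library of treated cells was analysed here. The labels do not say that replicates were separate cultures, so p-values measure the spread between these libraries, which may be technical. In bulk libraries, fewer cells with a transcript and less of it per cell cannot be told apart.

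Total transcript counts ran from 467741, in treated RNPS1 library B, to 8057700. Treated RNPS1 library B stood apart from its replicate: the mean GC content of its counted exons was 56.3%, against 47.9% in library A, 46.5% and 48.0% in the treated CASC3 libraries and 54.1% to 56.9% in the untreated crosslinked libraries. The part of depth and GC content in the comparisons with cycloheximide was not tested. LIN28B, an RNA-binding protein gene that HEK293 cells are known to transcribe, stood at 92.5 and 108 CPM (a count scaled to a common library total) in RNA-seq, and the liver and leukocyte genes ALB and PTPRC stood at 0 in both libraries. NEFM, a neurofilament gene also reported in HEK293 cells, was at 0.873 and 0.

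The noncoding hosts were short and had few exons. Their listed transcripts had 2 to 39 exons, with a median of 4, and a median length of 982 bases. The coding hosts had 6 to 31 exons, with a median of 16.5, and a median length of 2807.5 bases. RefSeq placed 98 snoRNAs in the introns of 26 noncoding hosts and 14 in those of 5 coding hosts, and none in the introns of the listed TAF1D transcript. Some snoRNAs touched host exons, 1 each in GAS5, SNHG3, SNHG16, SNHG22, SNHG24 and SNHG25 and 2 in SNHG14. Whether their reads were counted to those exons is not known. The rows of the snoRNAs themselves were almost empty: 112 snoRNA rows inside hosts other than SNHG5 held 26 counts over all 15 libraries. The exception was SNORD50A in SNHG5, with 577 and 965 counts in the RNA-seq libraries.

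The exons on which the results turn are printed below from GRCh38, from 5′ to 3′ of the transcript. Capitals mark bases 24 to 20 upstream of the exon's 3′ end, the canonical EJC position. The counts are sums over an exon and do not place the footprint within it. SNHG5 exons 1 (chr6:85678694-85678736, minus strand) and 2 (chr6:85678136-85678188), exon 3 of GAS5 (chr1:173866991-173867043, minus strand), exon 2 of EPB41L4A-AS1 (chr5:112161703-112161775, plus strand) and exon 4 of ZFAS1 (chr20:49280903-49280964, plus strand) are noncoding. RABGGTB exon 7 (chr1:75792181-75792306), GNL3 exon 14 (chr3:52694037-52694103) and WDR43 exon 14 (chr2:28937931-28937994), all on the plus strand, lie inside coding sequence.
SNHG5 exon 1: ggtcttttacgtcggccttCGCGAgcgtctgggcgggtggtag
SNHG5 exon 2: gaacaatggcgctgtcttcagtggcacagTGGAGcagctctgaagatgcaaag
GAS5 exon 3: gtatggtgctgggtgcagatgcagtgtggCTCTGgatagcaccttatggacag
EPB41L4A-AS1 exon 2: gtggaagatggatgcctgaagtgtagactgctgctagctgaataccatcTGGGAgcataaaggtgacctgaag
ZFAS1 exon 4: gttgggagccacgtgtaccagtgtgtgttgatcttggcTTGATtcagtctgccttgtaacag
RABGGTB exon 7: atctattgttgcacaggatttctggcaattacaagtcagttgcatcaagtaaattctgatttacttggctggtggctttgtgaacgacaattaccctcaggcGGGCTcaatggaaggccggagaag
GNL3 exon 14: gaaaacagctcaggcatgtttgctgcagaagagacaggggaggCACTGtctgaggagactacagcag
WDR43 exon 14: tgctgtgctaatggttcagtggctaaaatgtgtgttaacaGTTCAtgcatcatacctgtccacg

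In RNA-seq, the host RNAs differed widely in level. Per kilobase, GAS5 was first with a mean of 147.5 CPM per kb, followed by ZFAS1 (114.3), PRRC2A (98.5), SNHG16 (96.4), SF3B3 (65.3), SNHG6 (61.9), SNHG1 (47.2) and GNL3 (43.1). The class medians were 16.9 CPM per kb over the 27 noncoding and 35.6 over the 6 coding hosts. Neighbours in this order overlapped between libraries for PRRC2A and SNHG16, for SF3B3 and SNHG6, and for SNHG1 and GNL3, while GAS5 lay above ZFAS1 in both. SNHG14, SNHG18, SNHG23 and SNHG24 had no RNA-seq counts and at most 1.26 CPM in any crosslinked library. They, and SNHG22 (9.6 and 7.6 CPM in RNA-seq, at most 1.70 in a crosslinked library), were too low to test. The other 22 noncoding and all 6 coding hosts passed the filter on low counts in the crosslinked libraries. SNHG9 and SNHG25 did not pass it in the comparison with RNA-seq, which leaves 20 noncoding hosts there.

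**Figure D1:**
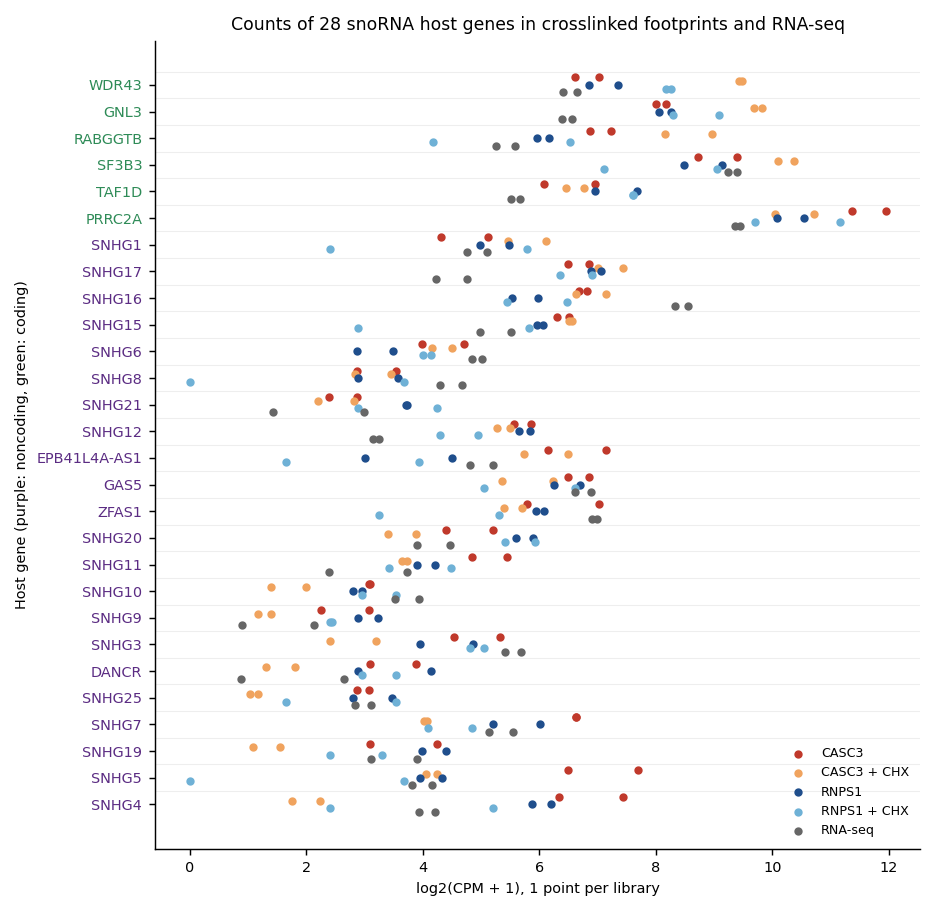
Each point is 1 library of the 28 tested host genes, on a log2(CPM + 1) axis. Colours separate the 4 crosslinked footprint groups and RNA-seq, and gene names are purple for noncoding and green for coding hosts. The orange points of WDR43 and GNL3 lie above their red points and those of SNHG4, SNHG5 and SNHG7 below them, while GAS5 spans 32.1 to 117 CPM over the 10 libraries.

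In CASC3 footprints, the median changes of noncoding and coding hosts with cycloheximide had opposite signs. Of 22 tested noncoding hosts, 7 fell and 0 rose, and of 6 coding hosts 3 rose and 0 fell, with an adjusted p under 0.05 in edgeR's quasi-likelihood test. Over all 14297 transcripts tested, 31.8% were called in this contrast, with 15.8% lower and 16% higher. The host shares were 31.8% of the tested noncoding hosts lower and 50% of the coding hosts higher. The median log2 change was -0.96 over the noncoding and 1.55 over the coding hosts, beside 0.06 over all transcripts. These counts and medians describe the classes and were not tested.

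Among the noncoding hosts, SNHG5, which carries SNORD50A and SNORD50B, stood at 89.0 and 207 CPM untreated and at 15.6 and 17.9 treated. Both treated libraries were below both untreated ones. The log2 change was -2.98 ± 0.65 (SE, 2 libraries a group; adjusted p = 0.00577, edgeR quasi-likelihood test). SNHG7, host of the H/ACA snoRNAs SNORA17A and SNORA17B, had 98.5 and 98.2 CPM untreated and 15.1 and 15.8 treated. The replicates nearly coincided and the groups did not overlap. Its change was -2.47 ± 0.49 (adjusted p = 0.00388, edgeR).

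SNHG4, which hosts SNORA74A, fell most, from 79.5 and 171 CPM to 3.72 and 2.39, a log2 change of -5.21 ± 0.73 (adjusted p = 0.00131, edgeR). Its exons 1 to 4 lie over exons of MATR3 on the same strand, so their reads cannot be assigned to one gene from these counts. SNHG19, the host of SNORD60, had 18.0 and 7.56 CPM untreated and 1.12 and 1.94 treated. SNHG25, the host of SNORD104, had 7.42 and 6.30 untreated and 1.24 and 1.04 treated. For each of these 3 genes the groups did not overlap, and SNHG19 (-2.82 ± 0.68, adjusted p = 0.00832) and SNHG25 (-2.35 ± 0.79, adjusted p = 0.0362) were also called by edgeR.

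DANCR, the host of SNORA26, had 13.8 and 7.56 CPM untreated and 2.48 and 1.49 treated. SNHG3, the host of SNORA73B, had 22.2 and 39.0 untreated and 8.19 and 4.33 treated. Neither overlapped between groups, with changes of -2.21 ± 0.71 (adjusted p = 0.0296) and -2.13 ± 0.57 (adjusted p = 0.0139, both edgeR). SNHG3 overlaps RCC1 in its exons, so its counts are uncertain.

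The 2 noncoding hosts highest per kilobase in RNA-seq, GAS5 and ZFAS1, were not called. GAS5, the host of 10 box C/D snoRNAs here and named for its growth-arrest expression, had 89.0 and 115 CPM untreated and 74.7 and 40.1 treated. ZFAS1, with the SNORD12 family, had 54.0 and 130 untreated and 50.8 and 41.0 treated. Both kept every treated library below every untreated one, but neither was called (-0.68 ± 0.52, adjusted p = 0.330, and -0.86 ± 0.57, adjusted p = 0.254, edgeR). SNHG1, the host of SNORD25 to SNORD31, was higher, with 33.9 and 18.9 CPM untreated and 68.6 and 43.0 treated, and was not called (1.28 ± 0.67, adjusted p = 0.152). SNHG16 had 102 and 112 CPM untreated and 141 and 98.0 treated, and the groups overlapped. SNHG15, the host of SNORA9, had 90.0 and 78.1 untreated and 92.8 and 90.4 treated.

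Among the coding hosts, WDR43, a subunit of the small-subunit processome that starts ribosomal RNA processing, had 129 and 97.0 CPM untreated and 687 and 715 treated. GNL3, the nucleolar GTPase nucleostemin, had 289 and 256 untreated and 819 and 901 treated. Both were several-fold higher in each treated library. Their changes were 2.85 ± 0.45 (adjusted p = 0.00181) and 1.87 ± 0.47 (adjusted p = 0.0101, both edgeR). RABGGTB, the beta subunit of the enzyme that attaches lipids to Rab proteins, had 115 and 149 untreated and 496 and 284 treated (1.71 ± 0.58, adjusted p = 0.0380, edgeR).

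SF3B3, a U2 snRNP subunit, had 672 and 419 CPM untreated and 1089 and 1315 treated, without overlap and without a call (1.38 ± 0.58, adjusted p = 0.0802). TAF1D, a subunit of the RNA polymerase I factor SL1, had 123 and 66.7 untreated and 108 and 87.3 treated, which overlapped. PRRC2A, an RNA-binding protein, went the other way at 2642 and 3932 untreated and 1051 and 1678 treated, and was not called (-1.07 ± 0.60, adjusted p = 0.179).

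Other gene lists were set beside the hosts in this contrast. Noncoding spliced transcripts outside the hosts had a median of -1.48, with 217 lower and 15 higher of 756. Of 24 other coding snoRNA hosts 11 rose and 2 fell, with a median of 1.33, and of 17 genes for snoRNP proteins and assembly factors 8 rose and 0 fell (1.32). The 24 ribosomal protein genes that host snoRNAs are coding but had a median of -0.99, with 8 lower and 0 higher. Exon number moved with class: the median change was -1.49 over the 9 hosts of 2 or 3 exons, -0.50 over the 12 with 4 to 8 exons, and 1.38 over the 7 with 9 or more, beside -1.01, 0.03 and 0.43 over all transcripts of those sizes. GAS5 and SNHG1 were the 2 noncoding hosts with 9 or more exons, at -0.68 and 1.28. Class and exon number cannot be told apart in so few genes.

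Calls in this contrast rested on single libraries. The 10 calls became 2 without untreated CASC3 library B, 3 without treated CASC3 library A, 4 without treated CASC3 library B and 5 without untreated CASC3 library A. Over all transcripts the calls in these fits were 2.32%, 8.71%, 7.51% and 13.9%. SNHG4 and WDR43 were called in each of these fits. Without SNHG4, 6 of 21 noncoding hosts fell, with a median of -0.86. Without the counts of first exons the hosts called were GNL3 and WDR43, higher, and SNHG4, SNHG5, SNHG7 and SNHG11, lower. In that fit 1917 of all 13758 transcripts were higher and 2117 lower. The medians were -0.50 over 19 noncoding and 1.26 over 6 coding hosts.

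**Figure D2:**
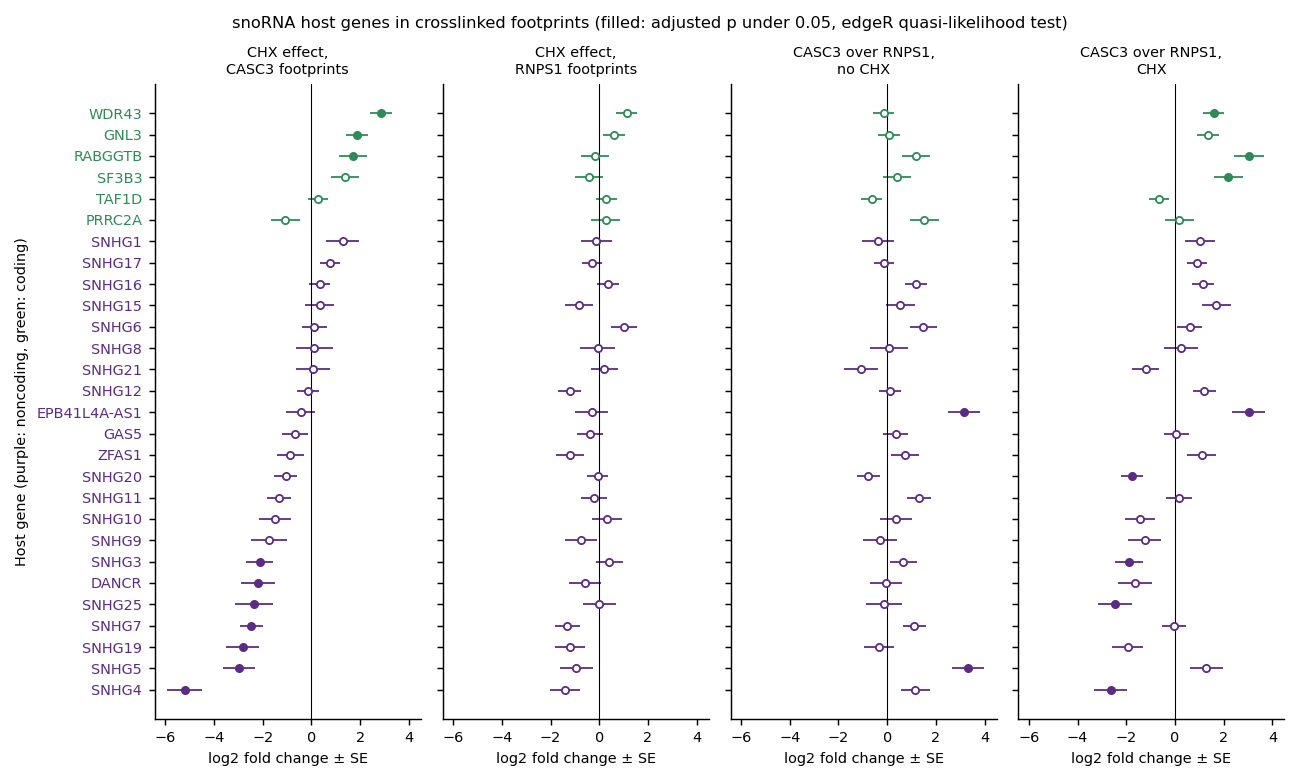
Log2 fold changes with standard errors of the 28 tested hosts in 4 contrasts of crosslinked footprints, from edgeR's quasi-likelihood test. Filled points passed an adjusted p of 0.05, and names are purple for noncoding and green for coding hosts. In the first panel 7 noncoding hosts lie lower and 3 coding hosts higher, while the second panel has no filled point.

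In RNPS1 footprints, cycloheximide gave 0 calls among the 28 tested hosts, beside 0.021% of all transcripts. At an unadjusted p under 0.05 there were 4, and DESeq2 also called 0, beside 0.881% of all transcripts. WDR43 had 162 and 114 CPM untreated and 305 and 289 treated, without overlap (1.13 ± 0.43, adjusted p = 0.299, edgeR). SNHG7 had 35.7 and 63.5 untreated and 15.996 and 27.8 treated (-1.32 ± 0.50). SNHG4 had 72.7 and 57.7 untreated and 35.9 and 4.28 treated (-1.41 ± 0.62, adjusted p = 0.351). The medians were -0.30 over noncoding and 0.28 over coding hosts.

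The 2 treated RNPS1 libraries decided this count. Without library A there were 4 calls, all lower (SNHG1, SNHG15, SNHG4 and ZFAS1), beside 2.46% of all transcripts lower in that fit. Without library B there were 2, also lower (SNHG7 and SNHG12), beside 7.44% lower. The difference between the responses to cycloheximide in CASC3 and RNPS1 footprints was tested as an interaction and called 0 hosts, beside 0% of all transcripts, with 7 at an unadjusted p under 0.05. DESeq2 called 1, SNHG4, beside 2.73% of all transcripts. Without treated RNPS1 library A the interaction called 6 hosts, beside 24.1% of all transcripts, and without library B 2, beside 3.23%. The interaction medians were -0.92 over noncoding and 1.495 over coding hosts, so a difference between the proteins was not shown for any single host by the main test.

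CASC3 and RNPS1 footprints without cycloheximide differed in few hosts. Of the 28 tested, 2 were higher in CASC3 footprints and 0 lower, beside 0.56% of all transcripts (0.553% higher and 0.00699% lower). SNHG5 had 89.0 and 207 CPM in CASC3 footprints and 14.5 and 19.1 in RNPS1 footprints. Both CASC3 libraries were several-fold above both RNPS1 libraries, and RNA-seq gave 13.1 and 16.9. The log2 difference was 3.32 ± 0.67 (adjusted p = 0.0413, edgeR quasi-likelihood test).

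EPB41L4A-AS1, the host of SNORA13, had 69.9 and 141 CPM in CASC3 footprints and 21.7 and 7.0 in RNPS1 footprints. The groups did not overlap, and the difference was 3.15 ± 0.66 (adjusted p = 0.0466, edgeR). Both calls were lost, with 0 hosts called, when untreated CASC3 library B, untreated RNPS1 library A or B, or treated CASC3 library A or B was left out. In those fits at most 0.0754% of all transcripts were called. Leaving the counts of first exons out of every transcript also ended both calls (SNHG5 2.23, adjusted p = 0.230, and EPB41L4A-AS1 3.20, adjusted p = 0.0749, edgeR). In that fit 11 of 13758 transcripts were higher and 0 lower. Exon 3 of EPB41L4A-AS1 overlaps EPB41L4A on the opposite strand, and the counting is not stated to use strand.

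The other 26 hosts were not called, though 5 of them, SNHG6, SNHG7, SNHG11, SNHG16 and PRRC2A, had an unadjusted p under 0.05. PRRC2A had 2642 and 3932 CPM in CASC3 and 1075 and 1496 in RNPS1 footprints (1.53 ± 0.61, adjusted p = 0.362). SNHG16 had 102 and 112 against 61.6 and 45.1 (1.18 ± 0.46, adjusted p = 0.345). Neither overlapped between groups. GAS5 overlapped, with 89.0 and 115 against 74.8 and 103. The medians were 0.36 over noncoding and 0.25 over coding hosts, beside -0.09 over all transcripts. Their difference turned to -0.0118 when no filter on low counts was used. The 24 ribosomal protein hosts had a median of 1.73, with 24 of 24 above 0 and 4 called higher.

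With cycloheximide, the comparison of CASC3 with RNPS1 footprints called 4 hosts higher and 4 lower of 28, beside 14.1% of all transcripts (6.42% higher and 7.69% lower). Higher were 3 of 6 coding hosts and 1 noncoding host. RABGGTB had 496 and 284 CPM in CASC3 footprints and 90.9 and 17.1 in RNPS1 footprints (3.05 ± 0.61, adjusted p = 0.0126, edgeR). SF3B3 had 1089 and 1315 against 528 and 137 (2.19 ± 0.59, adjusted p = 0.0287). WDR43 had 687 and 715 against 305 and 289 (1.59 ± 0.43, adjusted p = 0.0290). In all 3 the groups did not overlap.

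EPB41L4A-AS1 was the noncoding host called higher, with 89.5 and 52.2 CPM against 14.3 and 2.14. The groups were separate, but the 2.14 CPM of treated RNPS1 library B is 1 count. The difference was 3.02 ± 0.67 (adjusted p = 0.0159, edgeR). Without cycloheximide it was 3.15, from other libraries of the same cell lines in the same fit. SNHG5 had 15.6 and 17.9 against 11.9 and 0 (1.29 ± 0.68, adjusted p = 0.191), and was not called.

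Called lower were SNHG4, SNHG25, SNHG3 and SNHG20, all noncoding, with differences from -2.64 to -1.75. SNHG20, the host of the Cajal body RNA SCARNA16, overlaps SEC14L1 in its exons and had 13.8 and 9.55 CPM in CASC3 footprints and 41.6 and 59.9 in RNPS1 footprints (-1.75 ± 0.45, adjusted p = 0.0252, edgeR). SNHG3 had 8.19 and 4.33 against 26.9 and 32.1 (-1.89 ± 0.56, adjusted p = 0.0396). Both were lower in each CASC3 library. The median was 0.12 over noncoding and 1.47 over coding hosts, beside -0.07 over all transcripts.

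The treated comparison depended on the libraries fitted. Without treated CASC3 library A or B, or with the compared groups alone, 0 hosts were called, and 0 of all transcripts. Without treated RNPS1 library A there were 13, of which 11 were higher and 2 lower, beside 34.8% of all transcripts called. Without treated RNPS1 library B there were also 13, of which 7 were higher and 6 lower, beside 20.1%. SNHG4 moved from -2.64 to -0.12 without treated RNPS1 library A, where the median of all transcripts moved from -0.07 to 0.21.

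Within the hosts, the counts lay in different exons. Exon numbers run from 5′ to 3′ in the listed transcript, and 184 host exons were tested. In untreated cells 4 exons were higher in CASC3 than in RNPS1 footprints and 0 lower, beside 0.286% of all exons. One was SNHG5 exon 1, printed above, with 48.7 and 146 CPM in CASC3 and 4.25 and 4.59 in RNPS1 footprints, a log2 difference of 4.61 ± 0.95 (adjusted p = 0.00173, edgeR). SNHG5 exons 2 and 3 gave 2.38 ± 0.90 and 1.80 ± 0.88 and were not called.

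The other 3 were PRRC2A exons 20, 25 and 30. PRRC2A split along its length: every tested exon from 17 to 31 had a difference between 1.46 and 3.44, while exons 1 to 16 lay between -0.56 and 1.49. Of the 7 PRRC2A transcripts listed, 6 had no counts in any library.

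In CASC3 footprints the exons of noncoding hosts that fell under cycloheximide were first and internal ones. Of the 184 host exons, 17 rose and 21 fell in 14 hosts, beside 18.5% of all exons called (7.22% higher and 11.3% lower). In noncoding hosts 7 of 18 first exons and 7 of 46 internal exons fell, and 0 of 16 last exons, and none rose. In coding hosts 15 of 93 internal and 2 of 6 last exons rose, while 2 of 5 first and 5 of 93 internal exons fell. Over all spliced transcripts, 6690 of 84170 internal exons were lower and 6731 higher. Of 10738 last exons, 474 were lower and 775 higher, so few falls are found there in any set. First exons fell throughout: 4374 of 8568 first exons of spliced transcripts were lower and 15 higher. Their median GC content was 69.3%, against 49.4% for internal exons, and the GC content of the counted exons was lower in 3 of the 4 treated libraries, as given above.

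SNHG5 exon 1 went from 48.7 and 146 CPM to 0.869 and 0.746, a change of -6.90 ± 1.06 (adjusted p = 7.49e-08, edgeR), and its exon 2 changed by -3.26 ± 0.92 (adjusted p = 0.0060). Exon 3 of GAS5, which held its highest counts in untreated cells, went from 28.6 and 54.2 CPM to 4.34 and 1.94 (-3.71 ± 0.91, adjusted p = 0.00149), although GAS5 as a whole was not called. Its exon 9 changed by -0.70 ± 0.85. SNHG7 fell in exons 1, 2 and 4. PRRC2A exon 1 changed by -5.09 ± 0.98 (adjusted p = 2.76e-05, edgeR).

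In coding hosts, WDR43 rose in 10 of its 18 exons, all between 5 and 17, with exon 14 at 4.72 ± 1.08 and exon 12 at 4.94 ± 1.08. GNL3 rose in exons 12, 13 and 15, RABGGTB in exon 9 (3.16 ± 0.91) and SF3B3 in exons 8, 22 and 25. TAF1D exon 1 fell (-2.65 ± 0.90).

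**Figure D3:**
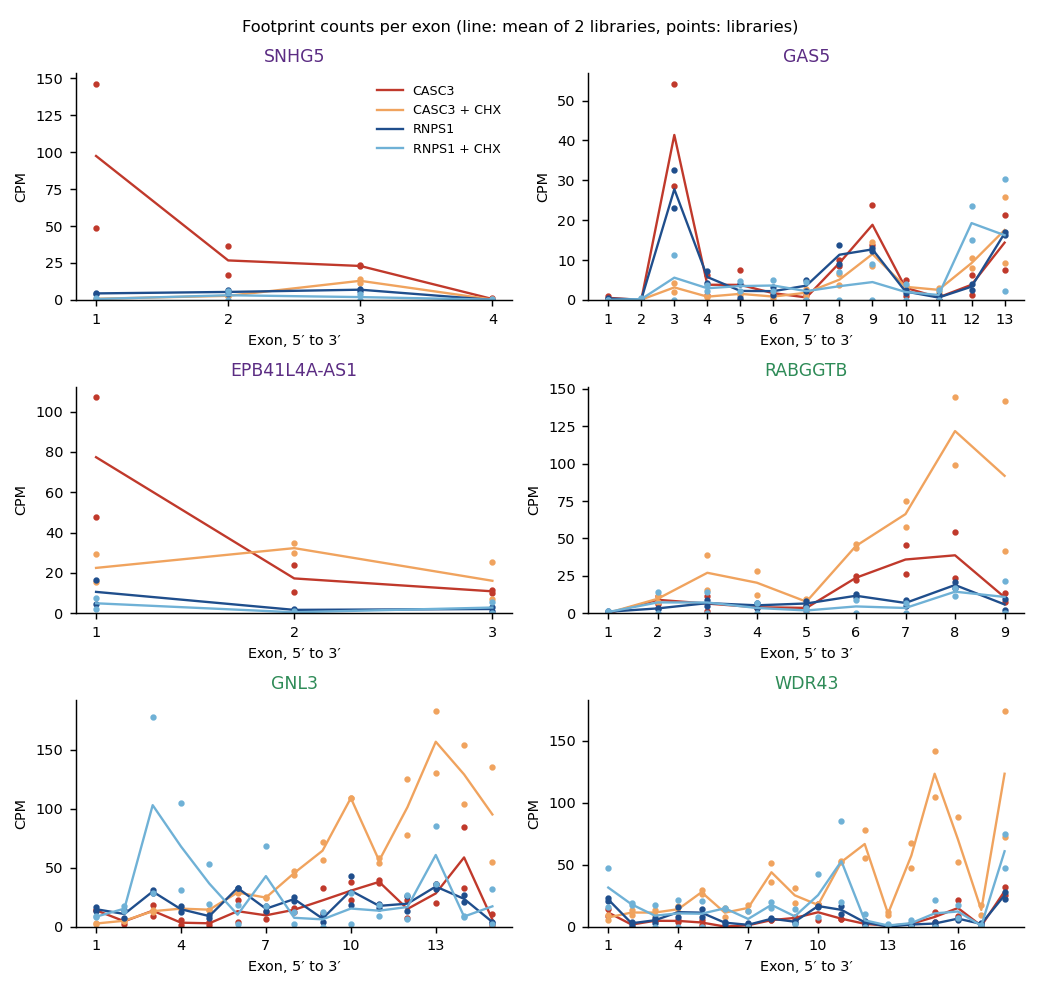
Footprint counts per exon, in CPM, for SNHG5, GAS5, EPB41L4A-AS1, RABGGTB, GNL3 and WDR43, with 1 point per library and lines for the mean of 2. CASC3 is red, treated CASC3 orange, RNPS1 dark blue and treated RNPS1 light blue. The red peak at SNHG5 exon 1 is gone in the orange line, and the orange lines of RABGGTB, GNL3 and WDR43 rise in the later exons.

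The share of counts in the earlier exons, up to the middle of the exon order, was compared for the 17 hosts with at least 20 counts in each of the 4 CASC3 libraries. Both treated shares lay below both untreated shares in 8 of 11 noncoding and 4 of 6 coding hosts. How many other transcripts met this rule was not counted, so these counts do not set the hosts apart. Summed over all spliced transcripts the shares fell too, from 42.8% and 43.6% untreated to 26.1% and 25.6% treated. SNHG5 (exons 1 and 2 of 4) had 73.8% and 88.4% untreated and 23.8% and 19.2% treated, and in RNPS1 footprints 55.9% and 60.8% untreated and 64.0% in the treated library that had counts. GAS5 (exons 1 to 6 of 13) had 42.9% and 56.0% untreated and 10.96% and 11.5% treated. In RNPS1 footprints GAS5 had 39.2% and 46.2% untreated and 25.9% and 20% treated, the last from 15 counts, and in RNA-seq 12.7% and 9.65%.

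Other hosts did not shift in this way. SNHG7, which fell as a whole, had 81.7% and 89.7% of its counts in its earlier exons untreated and 90.2% and 87.7% treated, which overlapped. The shares of SNHG3, SNHG12 and RABGGTB overlapped too, and those of PRRC2A were higher after treatment, at 30.7% and 35.7% against 27.8% and 27.9%.

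First exons held a large share of the noncoding hosts' summed footprints. They took 36.1% and 41.6% of their summed counts in untreated CASC3 footprints, 28.9% and 28.3% in RNPS1 footprints and 21.1% and 19.9% in RNA-seq. Without SNHG4, whose exon 1 lies over MATR3, the untreated CASC3 shares were 33.7% and 36.1%. The sums rested on some of the hosts. In untreated CASC3 library B, SNHG5, SNHG4 and EPB41L4A-AS1 gave 116, 109 and 85 of the 454 first-exon counts. In library A they gave 46, 49 and 45 of 358. The first exons of SNHG1, SNHG6 and SNHG12 had 0 counts in both libraries, and that of GAS5 had 1 and 0. Noncoding hosts have few exons, and no set matched on exon number was compared. After cycloheximide the share was 11.9% and 11.7% in CASC3 and 21.2% and 30.5% in RNPS1 footprints. In coding hosts the CASC3 share was 2.67% and 2.18% untreated and 0.575% and 0.294% treated, and over all spliced transcripts 11.7% and 14.8% untreated and 2.26% and 2.12% treated.

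The native libraries, with 1 library each, gave noncoding first-exon shares of 26.5% (RNPS1-EIF4A3, 95% exact binomial interval 24.6% to 28.5%) to 44.1% (MAGOH-RNPS1, 41.9% to 46.2%). These intervals cover counting error only, since the reads carry no stated molecular identifiers. Without SNHG4 the shares in RNPS1-EIF4A3 and MAGOH-RNPS1 were 25.5% and 39.4%. The last exons, which carry no downstream junction, held 55.5% and 62.2% of noncoding host counts in RNA-seq and 18.2% and 12.7% in untreated CASC3 footprints. In RNPS1 footprints they held 17.0% and 15.3%.

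**Figure D4:**
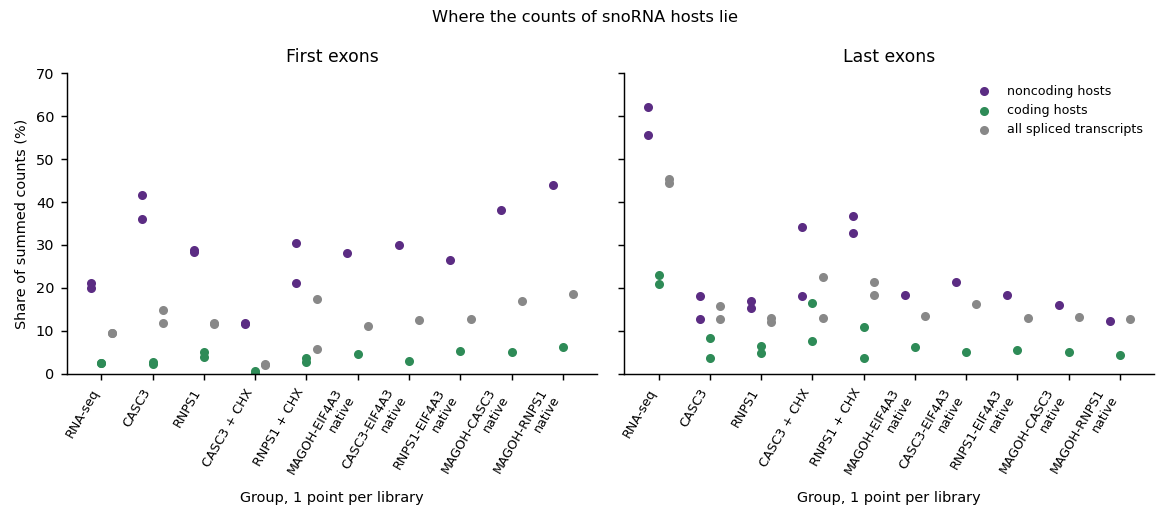
Share of summed counts, in percent, that lay in first exons (left) and last exons (right), with 1 point per library in each group. Purple points are noncoding hosts, green points coding hosts and grey points all spliced transcripts. In the left panel noncoding hosts lie near 12% in treated CASC3 footprints and at 36.1% and 41.6% in untreated ones, and in the right panel RNA-seq lies above the footprints for noncoding hosts.

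With treatment, 36 host exons were higher in CASC3 than in RNPS1 footprints and 7 lower, in 13 hosts, beside 9.53% of all exons (4.48% higher and 5.05% lower). Exon 2 of EPB41L4A-AS1 differed by 5.40 ± 1.13 (adjusted p = 0.0005, edgeR), exon 4 of ZFAS1 by 4.32 ± 1.13 and exon 8 of SNHG1 by 2.80 ± 0.96. In coding hosts, RABGGTB was higher in exons 6 to 9, with exon 7 at 3.93 ± 0.93, GNL3 in 6 exons with exon 14 at 4.16 ± 0.92, WDR43 in exons 12 to 17 with exon 14 at 4.02 ± 0.95, and SF3B3 in 10 exons. The lower exons included PRRC2A exon 1 (-4.23 ± 0.96), SNHG20 exon 1 (-3.76 ± 0.95) and GNL3 exon 3 (-2.64 ± 0.85). In RNPS1 footprints cycloheximide called 1 host exon, SNHG4 exon 1, lower, beside 0.196% of all exons (0.0756% higher and 0.121% lower).

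Exons followed by a snoRNA-bearing intron were set beside the others. In noncoding hosts the median was 6.23 CPM over 51 such exons of 22 hosts in untreated CASC3 footprints and 6.24 over 28 other exons of 15 hosts, last exons aside. In RNPS1 footprints the medians were 5.75 and 3.04. In coding hosts, 14 exons before a snoRNA intron had a median of 9.24 in CASC3 footprints and the other 85 one of 21.2. Median exon lengths were 72 and 86 bases in the noncoding groups.

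The counts per length varied with exon length. Noncoding host exons under 40 bases, of which 13 were in 4 hosts, had a median of 2.97 CPM per 100 bases in untreated CASC3 footprints and 2.77 in RNA-seq. Those of 40 to 99 bases had 12.9 and 3.31, and those of 100 or more 4.04 and 1.57. In RNPS1 footprints the medians were 7.07, 8.88 and 3.06 in the same order.

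Set against RNA-seq, footprints on the hosts were not uniform. Of the 20 noncoding hosts tested, 8 were higher and 1 lower in CASC3 footprints, and 4 of 6 coding hosts were higher. Of all transcripts tested, 51.1% were called in this comparison (27% higher and 24.1% lower). In RNPS1 footprints 6 noncoding hosts were higher and 7 lower and 2 coding hosts higher, beside 61.7% of all transcripts (32.1% higher and 29.6% lower). Both comparisons use the same RNA-seq libraries, so their values are given side by side. Over all transcripts the difference from RNA-seq varied with exon number. For 2 or 3, 4 to 8 and 9 or more exons the medians were -0.99, -0.45 and 0.56 in CASC3 footprints. In RNPS1 footprints they were -1.32, -0.49 and 0.65. The part of exon number in the host values was not tested.

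SNHG12, which hosts 4 snoRNAs, had 7.86 and 8.45 CPM in RNA-seq, 46.6 and 56.7 in CASC3 and 49.3 and 56.5 in RNPS1 footprints. It was higher in every footprint library, by 2.75 ± 0.39 (adjusted p = 0.000374) in CASC3 and 2.59 ± 0.37 (adjusted p = 0.000193, both edgeR) in RNPS1 footprints. SNHG17, the host of the SNORA71 family, had 26.2 and 17.7 in RNA-seq, 114 and 89.4 in CASC3 and 133 and 117 in RNPS1 footprints. Its differences were 2.30 ± 0.27 and 2.39 ± 0.26. SNHG5 was 3.44 ± 0.51 above RNA-seq in CASC3 footprints (adjusted p = 0.000510) and 0.08 ± 0.54 in RNPS1 footprints.

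SNHG16, the host of SNORD1A and SNORD1B, had the lowest ratio to RNA-seq of the 26 tested hosts in both. It had 375 and 320 CPM in RNA-seq, 102 and 112 in CASC3 and 61.6 and 45.1 in RNPS1 footprints. All 4 footprint libraries lay below both RNA-seq libraries, and the differences were -1.60 ± 0.27 (adjusted p = 0.000868) and -2.83 ± 0.27 (adjusted p = 3.32e-05, edgeR). Its transcript has 3 exons and 3607 bases. The last exon, which carries no downstream junction, held 78.6% and 86.5% of the SNHG16 counts in RNA-seq. In footprints it held less, 37.5% and 38.2% in CASC3 and 33.8% and 33.7% in RNPS1. Over all spliced transcripts last exons held 44.4% and 45.3% in RNA-seq. The part of the last exon in the SNHG16 differences was not tested. SNHG6, the host of SNORD87, had 31.4 and 27.9 in RNA-seq, 14.8 and 25.2 in CASC3 and 10.2 and 6.27 in RNPS1 footprints, and was called lower in the last (-1.995 ± 0.40, adjusted p = 0.00155). EPB41L4A-AS1, at 35.8 and 27.0 in RNA-seq, was higher in CASC3 (1.88 ± 0.51) and lower in RNPS1 footprints (-1.34 ± 0.54, adjusted p = 0.0489).

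The remaining calls against RNA-seq are given by their differences. In CASC3 footprints SNHG4 (3.12), SNHG11 (2.17), SNHG7 (1.39) and SNHG15 (1.23) were higher, and among coding hosts PRRC2A (2.42), RABGGTB (1.76), GNL3 (1.72) and TAF1D (1.06). In RNPS1 footprints SNHG4 (1.91), DANCR (1.90), SNHG20 (1.46), SNHG21 (1.39), TAF1D (1.64) and GNL3 (1.57) were higher, and SNHG8 (-1.35), SNHG3 (-1.15), ZFAS1 (-1.06) and SNHG10 (-1.05) lower. GAS5 and SNHG1 were called in neither. All 24 ribosomal protein hosts were lower in RNPS1 footprints than in RNA-seq.

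**Figure D5:**
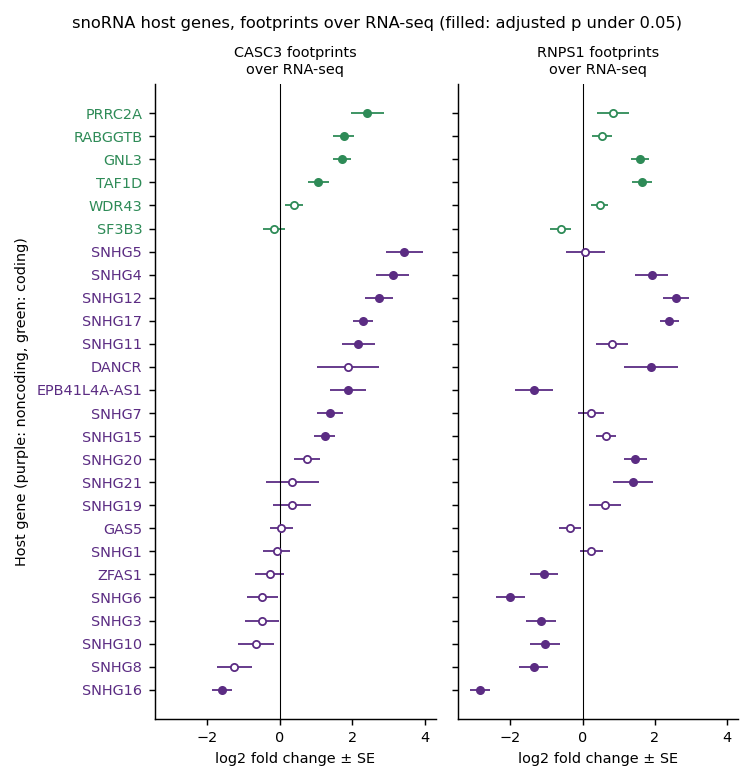
Log2 fold changes with standard errors of untreated CASC3 and RNPS1 footprints over RNA-seq for the 26 tested hosts, from edgeR's quasi-likelihood test. Filled points passed an adjusted p of 0.05, and names are purple for noncoding and green for coding hosts. SNHG16 lies lowest in both panels, and EPB41L4A-AS1 lies at 1.88 in the left and -1.34 in the right panel.

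The native libraries had 1 library a group, so their values have no replicate check and no test. After centring on the median of all transcripts, 12 of 28 hosts were higher in CASC3-EIF4A3 than in RNPS1-EIF4A3 footprints, with medians of -0.09 over both noncoding and coding hosts. In MAGOH-CASC3 against MAGOH-RNPS1 footprints 16 of 28 were higher, with medians of 0.08 and 0.07. SNHG5 had 39 and 47 counts in the first pair (41.7 and 21.0 CPM) and a log2 ratio of 1.02, and 0.90 in the second. EPB41L4A-AS1 gave 0.82 and 0.62 from 17 to 36 counts a library. Both lay on the CASC3 side in each native pair, as in crosslinked cells, at counts too low to set their size. PRRC2A had 2023 and 1268 CPM in the first pair and 1844 and 1902 in the second.

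The first bases of the hosts were compared as a description. Many snoRNA hosts and ribosomal protein genes are known to start with a run of pyrimidines, the 5′ terminal oligopyrimidine tract. A window of 15 bases on each side of the RefSeq start (GRCh38.p14) was searched on the transcript strand for the longest run of C or T, and 16 hosts had a RefSeq start within 50 bases of the start in the files. A run of at least 6 was found in 8 of 13 noncoding and 0 of 3 coding hosts, beside 31.1% of 35116 windows, and in 13 of 16 ribosomal protein hosts. A run anywhere in the window was counted, so a match need not lie at the start and is no evidence of use. One of the noncoding matches is SNHG18, which had 0 counts in every library. Relative to the RefSeq start, the run begins at -1 in SNHG5 and SNHG19 and at 4 in SNHG16. In SNHG7 the run of 11 begins at -14 and ends upstream of the start. These 4 windows belong to SNHG5, SNHG7 and SNHG19, which fell with cycloheximide in CASC3 footprints, and to SNHG16, which did not, with the longest run in capitals.
SNHG5 start: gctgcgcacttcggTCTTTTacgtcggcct
SNHG7 start: gCTTCCCTTCTCgtcctctgcgtgcgccgg
SNHG19 start: ctcgcccgcccctgTCTTTTCggggtcgag
SNHG16 start: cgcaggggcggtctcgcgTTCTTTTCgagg
Runs stood in the windows of SNHG1 and SNHG17 as well, neither of which was called with cycloheximide.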

How the data were processed

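The deposited files hold raw counts of reads per exon, made by the authors for each of 15 libraries. Per the submitters' processing notes, cutadapt 1.16, TopHat2 2.1.1 and bedtools were used on hg38. How reads were counted, by strand or when multiply mapped, is not given in the sources used here. Exon counts were summed to 49948 listed transcripts, and all 33 hosts' exon sums equalled their transcript counts. CPM is a count divided by the library's total transcript count and scaled to counts per 1e6.

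Tests used edgeR 4.0.16 (R 4.3.3) quasi-likelihood fits on these counts scaled by TMM, after filterByExpr (minimum count 10), with Benjamini-Hochberg adjustment over all transcripts or exons tested (threshold 0.05). The 8 crosslinked libraries were fitted together, and untreated footprints with RNA-seq separately. Native ratios used a prior count of 2 and no test. The scripts were tested on simulated data. Alternatives were DESeq2 1.42.0, its size factors, no filter, compared groups alone, a replicate block, leaving out each library and, added after the data were seen, leaving out SNHG4 or first exons. Library totals ran from 467741 to 8057700, so low hosts in the smallest library rest on few reads.

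Named are the hosts called in any comparison, the 8 noncoding hosts with the highest RNA-seq CPM and the 6 coding hosts; other names serve to account for every member. Members and gene lists were chosen with earlier results of these data known. Sequences, snoRNA positions and starts come from the given annotation and RefSeq GRCh38.p14 tables. Of the 33 hosts, 15 overlap another gene in their exons.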

Additional observations from a re-analysis of the deposited data

How the results depend on the processing

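Over the alternatives run, no single-host call changed sign. Leaving out 1 library kept 223 of the single-host calls and lost 105; other settings kept 283 and lost 23. The number of hosts called ranged, when 1 library was left out, from 0 to 3 in untreated CASC3 against RNPS1 footprints (2 with every library), 0 to 13 with cycloheximide (8), 2 to 14 for cycloheximide in CASC3 footprints (10), 0 to 4 in RNPS1 footprints (0), 0 to 6 in the interaction (0), 10 to 15 in CASC3 footprints against RNA-seq (13) and 10 to 15 in RNPS1 footprints (15). Host exons called in untreated cells ranged from 0 to 23 (4). The share of all transcripts called differed between these fits too, so the ranges are not a result about the hosts. With the compared groups alone, the treated comparison called 0 hosts, beside 0% of all transcripts. Cycloheximide in CASC3 footprints then called 16 hosts, beside 48.9% of all transcripts. Host exons called in untreated cells were then 20, and the share over all exons is not given here. Leaving out first exons left 0 hosts in the untreated comparison, where 11 of 13758 transcripts were called. It left 6 for cycloheximide in CASC3 footprints, beside 1917 transcripts higher and 2117 lower. Fewer noncoding hosts, 19, could then be tested. The interaction called 1 host with no filter and with DESeq2, beside 1.76% and 2.73% of all transcripts. With no filter, the noncoding median minus the coding median turned from 0.11 to -0.0118 untreated and moved from -1.36 to -1.58 treated; the cause was not tested. Replicate letters were not taken to pair the samples, since the labels do not say so. Same-letter deviations correlated over 0.1 in 5 of 6 crosslinked pairs of groups (0.04 to 0.36). They did so in 0 of 4 pairs with RNA-seq (-0.02 to 0.02). The main crosslinked fit holds no RNA-seq library and has no term for the letter. With a replicate block the counts were 2 and 11 for CASC3 against RNPS1 untreated and treated, beside 1.04% and 22.2% of all transcripts. They were 12 and 0 for cycloheximide in CASC3 and RNPS1 footprints, beside 37.6% and 0.049%, and 1 in the interaction, beside 1.24%. Against RNA-seq they were 15 in CASC3 and 16 in RNPS1 footprints, beside 56.1% and 66%. For untreated exons the count was 8. Depth limits the treated RNPS1 values, since library B holds 467741 counts.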
